A study of Mus musculus with 8 samples.

Results

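The genes described here are 32 mouse genes for cytosolic and mitochondrial protein chaperones and their partners, out of 55487 genes in the deposited count table. They were taken by gene name and sorted into 6 classes by role, which are 6 small heat shock proteins, 7 members of the HSP70 and HSP110 family, 2 HSP90 proteins, 5 J-domain proteins, 4 mitochondrial chaperones, and 8 co-chaperones and regulators. RNA was measured in hearts of db/db mice given DIZE (4 libraries) and in hearts of db/db mice given vehicle (4 libraries). db/db mice lack the long form of the leptin receptor and become obese and diabetic, and animals of both groups carry this defect, so no value below compares diabetic with lean hearts. By the title of the series, the study asked about drug activation of angiotensin-converting enzyme II in the diabetic heart. The sources used here do not state the dose, the length of treatment, age, sex or the number of animals behind a library, so the p-values measure only the spread between these libraries.

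Chaperones bind unfolded or partly folded proteins and help them to fold, to stay soluble or to be degraded. Small heat shock proteins hold unfolding clients without using ATP, and J-domain proteins pass clients to HSP70, whose cycle of ATP binding and release is reset by HSP110 proteins and BAG proteins. HSP90 acts later in folding, with co-chaperones such as Stip1 and Ahsa1. Mitochondria have their own set, with mortalin (Hspa9) for import and the Hspd1 and Hspe1 chaperonin for folding. Heart muscle is rich in small heat shock proteins, which bind the sarcomere, the desmin network and titin. Heat shock factor 1 (Hsf1) binds inverted repeats of GAA in promoters and raises transcription of many of these genes under protein stress.

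Of the 32 genes, 24 had a RefSeq promoter window on GRCm38.p6, each with 250 bases before the annotated start and 50 after it. An inverted GAA repeat, spelled GAANNTTC or TTCNNGAA and each its own reverse complement, stood in 11 of these 24 windows (45.8%), against 4093 of all 27025 windows (15.1%). A run of 3 alternating units (GAANNTTCNNGAA or TTCNNGAANNTTC, which contain the shorter repeats and were read on both strands) stood in 3 of 24 windows (12.5%), those of Hsph1, Hspe1 and Chordc1, against 146 of all windows (0.54%). CCAAT or its reverse complement ATTGG stood in 37.5% of the chaperone windows, against 38.0% of all windows. The 5 windows below are shown because they hold the only windows with 3 units, one of the near-identical Hspa1a and Hspa1b pair, and the gene with the lowest p of all 32 (Dnaja1). The Dnaja1, Chordc1 and Hsph1 windows were chosen after the expression values had been seen. All are written 5′ to 3′ on the strand of the gene, and capitals mark the inverted repeats. A match describes these letters and does not show that a factor binds there.
Hsph1, chr5:149636287-149636586, minus strand: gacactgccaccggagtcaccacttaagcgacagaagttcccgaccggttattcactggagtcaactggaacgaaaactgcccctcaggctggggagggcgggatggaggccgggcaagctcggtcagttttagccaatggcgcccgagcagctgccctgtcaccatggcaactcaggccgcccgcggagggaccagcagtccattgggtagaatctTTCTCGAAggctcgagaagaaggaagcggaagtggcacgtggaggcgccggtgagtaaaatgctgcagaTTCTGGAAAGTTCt
Hspe1, chr1:55087898-55088197, plus strand: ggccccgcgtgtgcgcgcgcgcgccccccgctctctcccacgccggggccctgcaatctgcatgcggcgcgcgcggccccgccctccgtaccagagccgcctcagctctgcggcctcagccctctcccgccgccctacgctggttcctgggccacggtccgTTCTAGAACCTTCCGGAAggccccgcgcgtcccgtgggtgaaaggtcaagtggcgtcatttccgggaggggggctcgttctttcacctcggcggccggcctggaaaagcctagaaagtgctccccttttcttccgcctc
Chordc1, chr9:18292017-18292316, plus strand: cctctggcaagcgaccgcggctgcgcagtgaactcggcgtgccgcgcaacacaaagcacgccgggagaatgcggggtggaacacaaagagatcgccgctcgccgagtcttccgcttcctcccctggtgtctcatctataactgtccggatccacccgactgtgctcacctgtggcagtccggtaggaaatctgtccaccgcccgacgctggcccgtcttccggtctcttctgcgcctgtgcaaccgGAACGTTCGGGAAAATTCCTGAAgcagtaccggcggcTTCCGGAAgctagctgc
Hspa1a, chr17:34972107-34972406, minus strand: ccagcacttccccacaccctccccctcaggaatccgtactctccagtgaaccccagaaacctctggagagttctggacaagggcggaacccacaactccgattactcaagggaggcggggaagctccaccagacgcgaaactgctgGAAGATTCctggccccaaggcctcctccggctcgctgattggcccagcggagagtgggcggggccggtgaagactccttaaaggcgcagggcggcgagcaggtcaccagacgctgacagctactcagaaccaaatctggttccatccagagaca
Dnaja1, chr4:40722218-40722517, plus strand: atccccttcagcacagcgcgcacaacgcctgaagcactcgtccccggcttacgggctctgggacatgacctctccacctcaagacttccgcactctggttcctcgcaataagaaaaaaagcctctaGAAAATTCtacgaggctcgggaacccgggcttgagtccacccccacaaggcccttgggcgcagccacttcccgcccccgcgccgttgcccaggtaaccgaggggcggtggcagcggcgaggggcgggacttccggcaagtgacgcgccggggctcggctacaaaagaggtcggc
In the Hspe1 window the repeats ran from 89 to 72 bases before the start. In the Dnaja1 window the repeat lay 124 to 117 bases before it, and in the Hspa1a window 104 to 97 bases before it. In the Chordc1 window the overlapping repeats crossed the annotated start and ended 19 bases after it. The Hspa1a and Hspa1b windows were identical at 296 of 300 positions (98.7%).

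The libraries held 7447664 to 10161623 counted reads each, and the 32 genes took 0.808% to 0.990% of them. All 32 passed the filter on low counts, which left 13648 genes for testing. Levels are given as CPM, read counts scaled to the depth of the tested genes with TMM factors. Myh6, the adult cardiac myosin heavy chain, was at 17053 to 20810 CPM in DIZE hearts and at 8858 to 19354 CPM in vehicle hearts. Vehicle library 1 stood apart. Its 7 cardiomyocyte markers summed to 23665 CPM, where the DIZE libraries had 38603 to 44151 CPM and the rest of the vehicle libraries 33970 to 41640 CPM. Its 4 atrial markers summed to 810 CPM, where DIZE libraries had 13.6 to 130.5 CPM and the rest of the vehicle libraries 35.3 to 314 CPM. Vehicle library 2 held 1747 CPM of 7 hepatocyte markers, where DIZE libraries had 1.01 to 3.91 CPM and the rest of the vehicle libraries 0.536 to 8.93 CPM.

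No chaperone gene passed an adjusted p of 0.05 between DIZE and vehicle hearts (quasi-likelihood test of edgeR, Benjamini-Hochberg adjusted over all tested genes), where 5 of 13648 genes did (0.0366%), 0.022% higher and 0.0147% lower in DIZE hearts. At an unadjusted p under 0.05 there were 3 chaperone genes (9.38%), Dnaja1, Chordc1 and Hspa4l, all with a lower mean in DIZE hearts, against 19.4% of all tested genes, 9.11% higher and 10.3% lower. DESeq2 called 0 of the 31 to which it gave an adjusted p (not Hspa1a), and limma-voom with library weights called 1 (Dnaja1). In none of the 32 did the DIZE and vehicle libraries separate without overlap, against 12.4% of all tested genes, 7.17% with the DIZE libraries above and 5.26% with them below. The log2 fold change of DIZE over vehicle was above 0 for 16 of the 32 and for 48.2% of all tested genes. Its median was 0.00 over the 32 and -0.01 over all tested genes, and its range ran from -0.80 for Hspa1a to 0.52 for Bag3. The median size of the change, without its sign, was 0.16 on the log2 scale over the 32, against 0.20 over all tested genes. For 19 of the 32 genes the 95% interval of the fold change lay within 1.5-fold either way. The interval reached past 1.5-fold for the other 13, and past 2-fold for 3 of them, Hspa1a, Hspa1b and Bag3. A lower level in whole-heart RNA can come from fewer cells of a type or from less RNA per cell, and these cannot be told apart here.

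**Figure D1:**
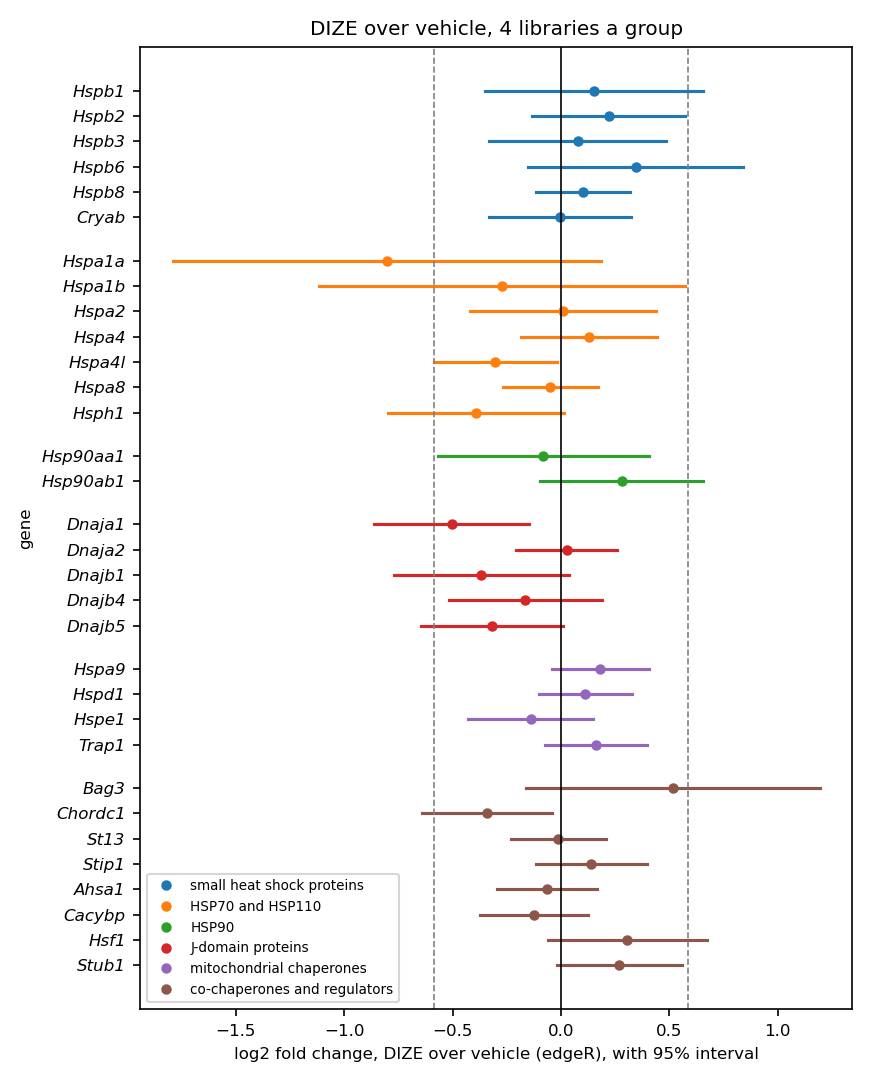
Fitted log2 fold change of DIZE over vehicle for each of the 32 chaperone genes, grouped by class, with points for the estimate and bars for the 95% interval (4 DIZE and 4 vehicle libraries). The estimates run from -0.80 for Hspa1a to 0.52 for Bag3, and the intervals of Dnaja1, Chordc1 and Hspa4l lie below 0 before adjustment for multiple tests.

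Per kilobase of transcript, the RNA of the set of chaperone genes described here was dominated by a few genes. Hspb7, a small heat shock protein outside this set, was not ranked per kilobase. It averaged 3464.6 CPM in DIZE hearts and 3301.5 CPM in vehicle hearts. Cryab, the lens and muscle small heat shock protein alphaB-crystallin, stood at 1011 CPM per kb over all 8 libraries, and Hspb6, a small heat shock protein of muscle, at 807 CPM per kb. They were followed by the constitutive HSP70 gene Hspa8 at 563, the constitutive HSP90 gene Hsp90ab1 at 524 and mortalin, Hspa9, at 319 CPM per kb. At the low end were the testis-rich HSP70 gene Hspa2 at 3.58, and the stress-inducible HSP70 genes Hspa1b at 0.961 and Hspa1a at 0.432 CPM per kb.

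**Figure D2:**
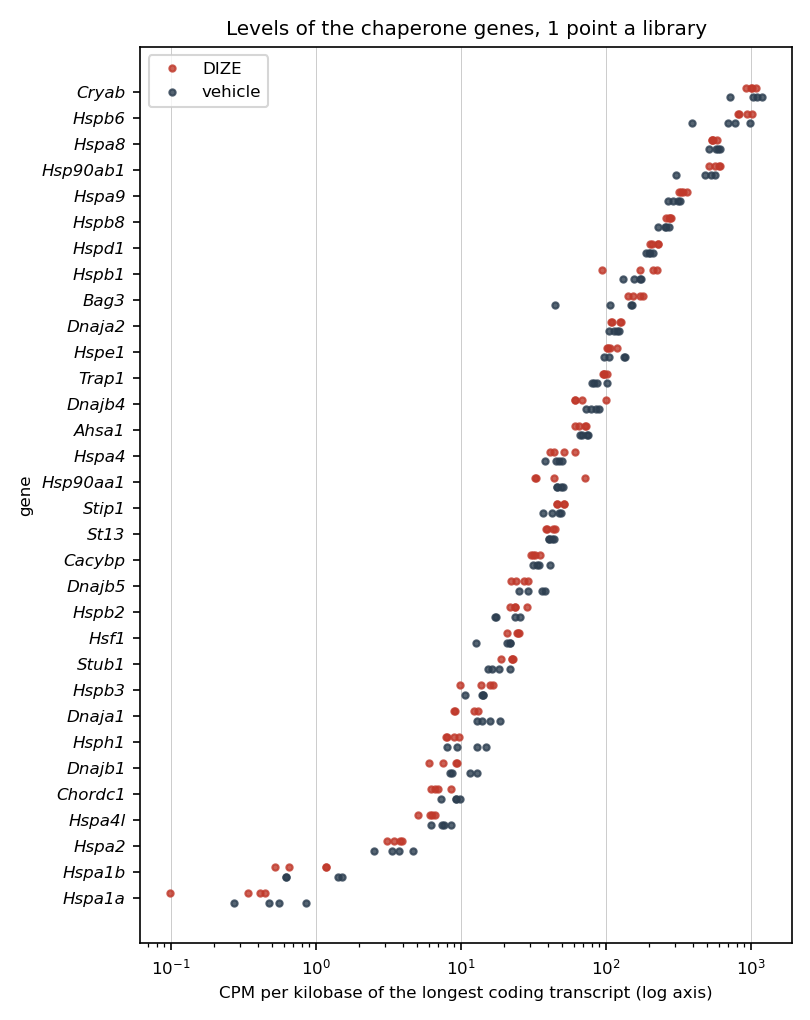
Level of each chaperone gene in CPM per kilobase of its longest coding transcript, on a log axis, with 1 point a library for 4 DIZE hearts above 4 vehicle hearts. Cryab averages 1009 CPM per kb in DIZE hearts and 1013 CPM per kb in vehicle hearts, and Hspa1a at 0.324 in DIZE hearts and 0.540 in vehicle hearts.

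The 6 small heat shock proteins had a median log2 fold change of 0.13, with 5 above 0 and 1 below, and none had an unadjusted p under 0.05. Cryab, which binds desmin and titin, had 1120, 1030.1, 1214 and 1144 CPM in the 4 DIZE hearts, against 801, 1342, 1231 and 1151 CPM in the 4 vehicle hearts. The DIZE values lay inside the range of the vehicle values, whose lowest was vehicle library 1. For Cryab the log2 fold change was -0.01 ± 0.15 (SE, adjusted p = 0.991). Hspb6, which binds actin-regulating partners and can be phosphorylated by cyclic nucleotide kinases, had 1115 to 1386 CPM in DIZE hearts and 532 to 1338 CPM in vehicle hearts. Its log2 fold change was 0.34 ± 0.23 (SE, adjusted p = 0.418), and 0.14 without vehicle library 1, which had the lowest value.

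Hspb1, the widely expressed HSP27 homologue, had 88.0 CPM in DIZE library 2, against 159.9 to 210 CPM in the other 3 DIZE hearts and 122 to 161 CPM in the vehicle hearts. The DIZE group thus held both the lowest and the highest values of Hspb1. Hspb8, the partner of Bag3 in chaperone-assisted autophagy, had 470.4 to 510 CPM in DIZE hearts and 414 to 496 CPM in vehicle hearts. The muscle genes Hspb2 and Hspb3, whose proteins form a complex with each other, had log2 fold changes of 0.22 ± 0.16 and 0.08 ± 0.19 (SE). The summed level of the class was 3047 ± 141 CPM in DIZE hearts and 2737 ± 608 CPM in vehicle hearts (SD, n = 4 each), and the vehicle values ran from 1893 CPM in vehicle library 1 to 3345 CPM in vehicle library 2.

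Among the HSP70 and HSP110 genes, 2 had a log2 fold change above 0 and 5 below, with a median of -0.27. Hspa8, the constitutive HSP70, had 1409, 1300.1, 1309 and 1283 CPM in DIZE hearts, against 1223, 1462, 1373 and 1423 CPM in vehicle hearts. The groups overlapped, with vehicle hearts holding both the lowest and the highest value, and the log2 fold change was -0.05 ± 0.10 (SE, adjusted p = 0.820). The summed level of the class, most of it Hspa8, was 1656 ± 77 CPM in DIZE hearts and 1706 ± 134 CPM in vehicle hearts (SD, n = 4 each).

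Hspa4l, an HSP110-like exchange factor, had 48.1, 62.9, 59.8 and 58.0 CPM in DIZE hearts, against 72.7, 58.7, 80.7 and 70.1 CPM in vehicle hearts. Only vehicle library 2 lay within the DIZE range. The DIZE level was 0.811-fold of vehicle (95% interval 0.666 to 0.987), a log2 fold change of -0.30 ± 0.13 (SE) with an unadjusted p of 0.0388 and an adjusted p of 0.232 in edgeR's quasi-likelihood test. With the trend on GC content and transcript length taken out of each library, the log2 fold change of Hspa4l was 0.01. Over the 32 genes the log2 fold change went with GC content of the transcript (Spearman's rho 0.40), as it did over 13638 tested genes (0.39), and Hspa4l has one of the lower values (39.5% GC). These are relations across genes, which share the libraries and are not independent replicates.

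Hsph1, the inducible HSP110, had 29.9 to 37.1 CPM in DIZE hearts and 30.7 to 56.5 CPM in vehicle hearts. Vehicle libraries 3 and 4 lay above every DIZE library, and vehicle libraries 1 and 2 lay among them. The log2 fold change was -0.39 ± 0.18 (SE, adjusted p = 0.276). Hspa4, a second exchange factor of this family, had a log2 fold change of 0.13 ± 0.14, and Hspa2 of 0.01 ± 0.20 (SE).

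The stress-inducible genes Hspa1a and Hspa1b had 3 to 26 and 13 to 43 reads in a library, too few for narrow intervals. Hspa1a had 1.22, 1.32, 1.01 and 0.293 CPM in DIZE hearts, against 1.64, 1.41, 0.805 and 2.55 CPM in vehicle hearts. The groups overlapped, and the DIZE level of 0.573-fold of vehicle had a 95% interval of 0.289 to 1.14. Hspa1b had a log2 fold change of -0.27 ± 0.39 (SE, adjusted p = 0.727). The transcripts share stretches: 39.5% of the 151-base windows of Hspa1a, the read length, occurred in another gene, mostly Hspa1b, so the split of reads between them is uncertain. With their reads summed the log2 fold change was -0.43 (adjusted p = 0.543).

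Of the HSP90 genes, Hsp90ab1, the constitutive form, had 1552, 1293, 1514 and 1432 CPM in DIZE hearts, against 769, 1336, 1226 and 1432 CPM in vehicle hearts. DIZE library 2 lay below 2 of the vehicle libraries and the groups overlapped. The log2 fold change was 0.28 ± 0.17 (SE, adjusted p = 0.383), and 0.12 without vehicle library 1. Hsp90aa1, the stress-inducible form, had 145, 236, 107 and 109 CPM in DIZE hearts, against 167, 150.3, 150.1 and 162 CPM in vehicle hearts. DIZE library 2 was above every vehicle library and the other 3 DIZE libraries were below them, and the log2 fold change was -0.08 ± 0.22 (SE, adjusted p = 0.872).

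The J-domain genes had log2 fold changes below 0 in 4 of 5 cases, with a median of -0.32. Dnaja1, a cytosolic partner of HSP70 that is itself heat-inducible, had 69.6, 73.3, 50.2 and 50.9 CPM in DIZE hearts, against 89.8, 78.5, 72.4 and 104.9 CPM in vehicle hearts. The groups met only where DIZE library 2 lay just above vehicle library 3. The DIZE level was 0.705-fold of vehicle (95% interval 0.550 to 0.904), a log2 fold change of -0.50 ± 0.16 (SE) with an unadjusted p of 0.0100 and an adjusted p of 0.151 in edgeR's quasi-likelihood test. limma-voom with library weights gave -0.66 with an adjusted p of 0.0490, where 3.27% of all tested genes passed, and Dnaja1 was the 1 chaperone gene that did. DESeq2 gave -0.50 with an adjusted p of 0.0813. Leaving out each library in turn kept the log2 fold change of Dnaja1 between -0.60 and -0.40. With the trend on GC content and length removed it was -0.36 (adjusted p = 0.218 in edgeR's test). With the numbers in the sample titles as a block it was -0.31.

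Dnajb1, the main stress-inducible HSP40, had 18.0 to 28.3 CPM in DIZE hearts and 25.3 to 38.5 CPM in vehicle hearts, a log2 fold change of -0.37 ± 0.18 (SE, adjusted p = 0.298). Dnajb5, another HSP40 gene, had 73.6 to 96.2 CPM in DIZE hearts and 83.0 to 125 CPM in vehicle hearts, a log2 fold change of -0.32 ± 0.15 (SE, adjusted p = 0.271). In both genes the groups overlapped. Dnajb4, of the same HSP40 subfamily, had a log2 fold change of -0.17 ± 0.16 (SE). Dnaja2, an HSP40 that supports refolding by HSP70 and the most abundant gene of this class per kilobase, had 372, 366, 316 and 320 CPM in DIZE hearts, against 333, 359.5, 307 and 349 CPM in vehicle hearts. Its groups overlapped throughout, with a log2 fold change of 0.03 ± 0.11 (SE, adjusted p = 0.918) and a 95% interval of the fold change from 0.866 to 1.20.

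**Figure D3:**
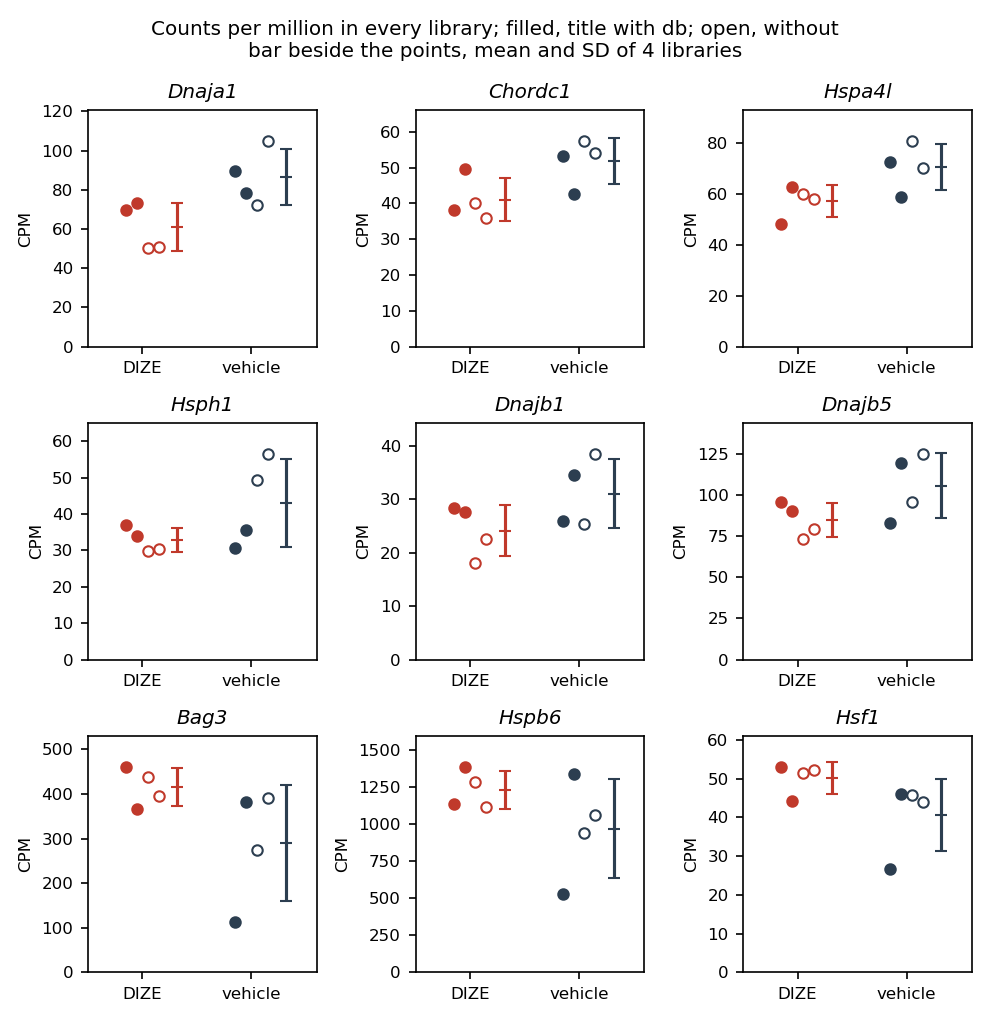
CPM of 9 chaperone genes, 1 panel a gene, with DIZE libraries left of vehicle libraries, filled points for titles with db and open points for titles without, and a bar for the mean and SD of 4 libraries. In the Dnaja1 panel the DIZE libraries lie between 50.2 and 73.3 CPM and the vehicle libraries between 72.4 and 104.9 CPM.

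The mitochondrial chaperones had small differences with narrow intervals. Hspa9, the import motor HSP70, had 1041, 1109, 1014 and 969 CPM in DIZE hearts, against 815, 983, 887 and 957 CPM in vehicle hearts. Only vehicle library 2 lay within the DIZE range. This gave a log2 fold change of 0.18 ± 0.10 (SE, adjusted p = 0.347), with a 95% interval of the fold change from 0.971 to 1.33. Hspd1, the HSP60 chaperonin, had 0.11 ± 0.10, and Trap1, the mitochondrial HSP90, had 0.16 ± 0.11 (log2 fold change ± SE). Hspe1, the chaperonin's lid, had a log2 fold change of -0.14 ± 0.13 (SE). Hspd1 and Hspe1 lie head to head on chromosome 1. The ratio of Hspe1 to Hspd1 in CPM was 0.142 to 0.165 in DIZE hearts and 0.154 to 0.231 in vehicle hearts, and these ranges overlapped.

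Among the co-chaperones and regulators, 4 genes had a log2 fold change above 0 and 4 below, with a median of 0.06. Chordc1, an HSP90-binding protein with zinc-binding domains, had 38.2, 49.6, 40.2 and 36.0 CPM in DIZE hearts, against 53.3, 42.6, 57.4 and 54.0 CPM in vehicle hearts. DIZE library 2 lay above vehicle library 2, and the other values were ordered by group. The DIZE level was 0.790-fold of vehicle (95% interval 0.642 to 0.973), a log2 fold change of -0.34 ± 0.14 (SE) with an unadjusted p of 0.0299 and an adjusted p of 0.212 in edgeR's quasi-likelihood test. With the trend on GC content and length removed, it was -0.13.

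Bag3, which links HSP70 and small heat shock proteins at the Z-disc and directs clients to autophagy, had 460.4, 366, 438 and 396 CPM in DIZE hearts, against 114, 382, 274 and 391 CPM in vehicle hearts. The 2 highest vehicle libraries lay within the DIZE range, and vehicle library 1 was far below all others. For Bag3 the log2 fold change was 0.52 ± 0.31 (SE, adjusted p = 0.373), and 0.25 without vehicle library 1. Hsf1, the heat shock transcription factor, showed the same library at the bottom, with 44.1 to 53.0 CPM in DIZE hearts, 26.6 CPM in vehicle library 1 and 44.0 to 45.9 CPM in the rest of the vehicle hearts. Its log2 fold change was 0.31 ± 0.17 (SE, adjusted p = 0.333), and 0.15 without that library.

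Stub1, the ubiquitin ligase CHIP that marks HSP70 clients for the proteasome, had a log2 fold change of 0.27 ± 0.13 (SE, adjusted p = 0.290). With the trend on GC content and length removed it was 0.04. Stip1, which bridges HSP70 and HSP90, had 0.14 ± 0.12, and Ahsa1, the activator of the HSP90 ATPase, had -0.06 ± 0.11 (log2 fold change ± SE). St13, an HSP70-interacting protein, had -0.01 ± 0.10, and Cacybp, a calcyclin-binding partner of ubiquitin ligases, had -0.12 ± 0.11 (log2 fold change ± SE). For these 4 genes the 95% intervals lay within 1.5-fold either way.

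**Figure D4:**
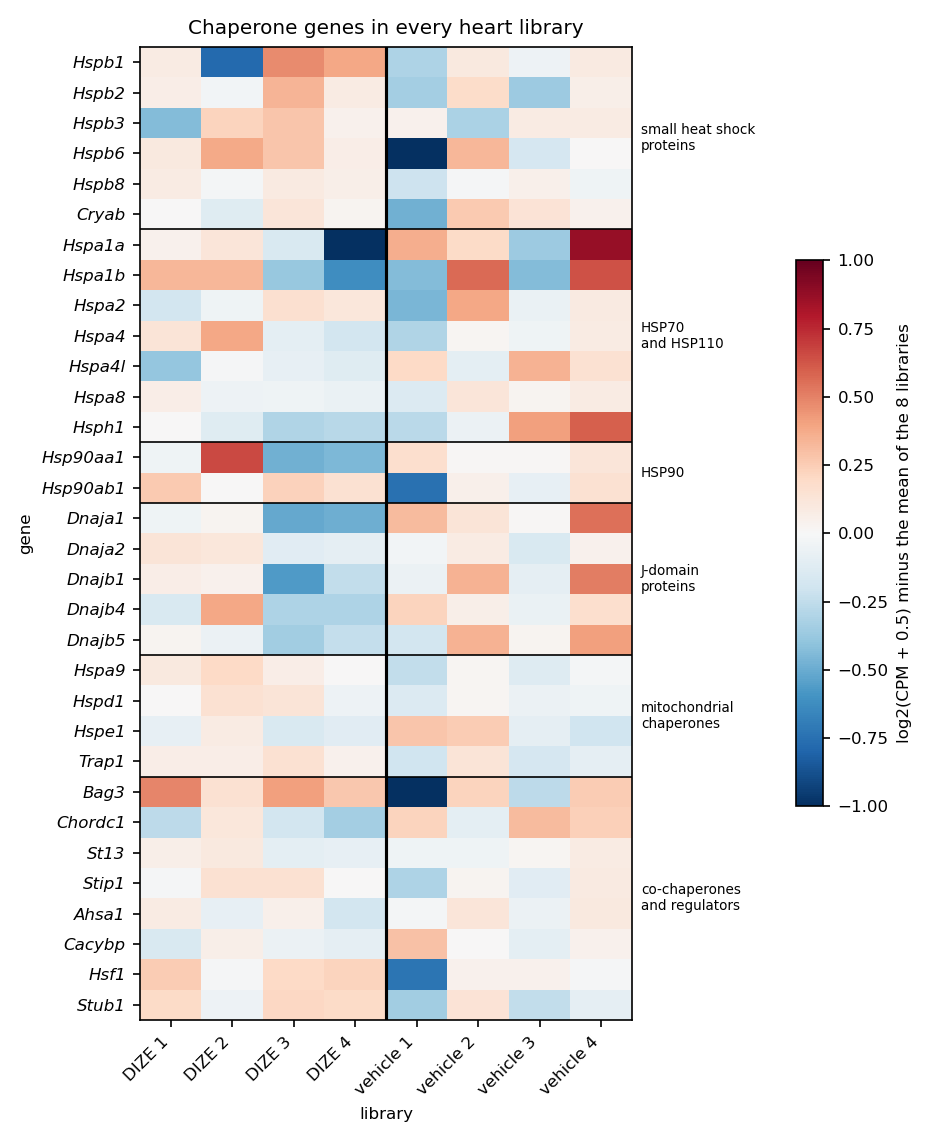
Level of each chaperone gene in each library relative to that gene's mean over all 8 libraries, as a difference in log2(CPM + 0.5), with DIZE libraries left of vehicle libraries and colours that saturate at 1 either way. Vehicle library 1 is low for Bag3 (-1.53), Hspb6 and Hsf1.

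Vehicle library 1 held the lowest value of all 8 libraries for 14 of the 32 genes (43.8%), against 27.0% of all tested genes, and the highest for 2 of the 32, against 22.5% of all tested genes. Its 6 fibroblast markers summed to 2450 CPM, against 1156 to 1614 CPM in DIZE hearts. The other vehicle hearts had 1301 to 1560 CPM. The low cardiomyocyte and high atrial and fibroblast sums of this library moved with its low Hspb6, Hsp90ab1, Bag3 and Hsf1 values. The part of the sums in these values was not tested. Not all markers followed the sums. The cardiomyocyte markers Myh6, Actc1, Tnnt2, Actn2 and Ryr2 were lowest in this library, but Tnni3 (2383 CPM) and Pln (985 CPM) were not. The fibroblast markers Pdgfra, Dcn (1462 CPM), Lum and Postn were highest in it. Col3a1 was higher only in vehicle library 3, and Col1a1, at 45.2 CPM, was lowest in vehicle library 1. Without that library the class medians of the log2 fold change were 0.08 for the small heat shock proteins, -0.29 for HSP70 and HSP110, 0.03 for HSP90, -0.42 for the J-domain genes, 0.10 for the mitochondrial chaperones, and 0.02 for the co-chaperones, and no chaperone gene passed the adjusted p. Without vehicle library 2, which held the hepatocyte transcripts, no chaperone gene passed either, where 240 genes did in all. The macrophage sum was 291 to 315 CPM in DIZE hearts, 492 CPM in vehicle library 1 and 304 to 357 CPM in the other vehicle hearts. The smooth muscle and pericyte sum was also highest in vehicle library 1, at 1464 CPM, against 1025 to 1064 CPM in DIZE hearts. The erythroid sum was 8.95 to 78.5 CPM in DIZE hearts and 101 to 210 CPM in vehicle hearts.

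The sample titles come in 2 forms, and the labels do not say what the form stands for. In each group the titles of libraries 1 and 2 hold the letters db, and those of libraries 3 and 4 do not. The sample descriptions of vehicle libraries 3 and 4 do hold db, and those of DIZE libraries 3 and 4 do not. The split used here rests on the titles alone. Vehicle library 1, with unusual cardiomyocyte and atrial marker sums, and vehicle library 2, with the hepatocyte sum, thus both fall among the titles with db. Vehicle library 4, without db in its title, had an atrial sum of 314 CPM, also above every DIZE library (13.6 to 130.5 CPM). A difference between the title forms cannot be told apart from vehicle libraries 1 and 2. Between the libraries without db alone, 6 of the 31 chaperone genes tested there passed the adjusted p in edgeR's test, where 9.57% of all genes did, 3.55% higher and 6.01% lower in DIZE hearts. Hsph1 fell by 0.82 on the log2 scale (adjusted p = 0.00724), Hsp90aa1 fell by 0.53 (adjusted p = 0.0154), and Chordc1 fell by 0.55 (adjusted p = 0.0228). Dnaja1 fell by 0.81 (adjusted p = 0.0314) and Dnajb5 fell by 0.53 (adjusted p = 0.0403), while Hspb1 rose by 0.41 (adjusted p = 0.0389). Between the libraries with db alone no tested gene passed in edgeR's test, and the log2 fold changes were 0.11 for Hsph1, 0.26 for Hsp90aa1, -0.12 for Chordc1, -0.23 for Dnaja1, -0.11 for Dnajb5 and -0.19 for Hspb1.

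The difference between the title forms was itself fitted, as an alternative chosen after the data had been seen. No gene passed the adjusted p for it, and 8.84% of all tested genes had an unadjusted p under 0.05. Of the 32, Hsph1 (difference of log2 fold changes 0.92 ± 0.21, SE, unadjusted p = 0.00191), Hsp90aa1 (0.79 ± 0.30, unadjusted p = 0.0279) and Hspa4 (0.55 ± 0.23, unadjusted p = 0.0374) were among these, each with a higher DIZE effect in the libraries with db. The lowest adjusted p of the 32 was 0.528 in edgeR's test. The DIZE effect on these genes was thus not shown to differ between the forms.

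Other genes of protein folding and of its stress response were read from the same fit, and none in the lists below passed the adjusted p. In that fit 48.2% of all tested genes had a log2 fold change above 0. Of 12 other J-domain genes, 8 had a log2 fold change above 0 and 4 below (median 0.06). Of 16 other HSP90 co-chaperones it was 9 above and 7 below (median 0.01). Ppp5c, a phosphatase bound to HSP90, had 119 to 139.8 CPM in DIZE hearts and 83.9 to 106 CPM in vehicle hearts (log2 fold change 0.41 ± 0.11, SE, adjusted p = 0.118). With the trend on GC content and length removed, the log2 fold change of Ppp5c was 0.24. All 14 genes of the cytosolic chaperonin TRiC and its partner prefoldin had an unadjusted p above 0.05 (median 0.03). Of the other small heat shock proteins, 2 of 4 were tested, and Hspb7, a filamin-binding protein of heart muscle, had 3207 to 3657 CPM in DIZE hearts and 2311 to 3993 CPM in vehicle hearts (log2 fold change 0.07 ± 0.15, SE).

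Among 10 other genes of HSP70 exchange factors, BAG proteins and further HSP70 family members (Hspa12a, Hspa12b, Hspa13 and Hspa14) the median log2 fold change was 0.05. Bag6, which guards hydrophobic proteins on their way to membranes or the proteasome, had 328, 308, 316 and 318 CPM in DIZE hearts, against 71.2, 211, 183 and 213 CPM in vehicle hearts. Every DIZE library was above every vehicle library, with vehicle library 1 lowest. The log2 fold change was 0.90 ± 0.27 (SE, adjusted p = 0.138), and 0.65 (adjusted p = 0.0453) without vehicle library 1, where Bag6 did pass. Hspbp1, an HSP70-binding exchange factor, had 35.7 to 40.9 CPM in DIZE hearts and 25.3 to 34.9 CPM in vehicle hearts (log2 fold change 0.35 ± 0.12, SE, adjusted p = 0.167). With the trend on GC content and length removed, the log2 fold change of Hspbp1 was 0.17.

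Of 15 genes of mitochondrial protein quality control, 10 had a log2 fold change above 0, and 4 had an unadjusted p under 0.05, all above 0 (median of the list 0.07), where 9.11% of all tested genes had such a p in that direction. Spg7, a subunit of the inner membrane m-AAA protease, had 197 to 218 CPM in DIZE hearts and 127 to 170.1 CPM in vehicle hearts (log2 fold change 0.48 ± 0.11, SE, adjusted p = 0.0938). Its partner subunit Afg3l2 had a log2 fold change of 0.30 ± 0.13, the import factor Timm44 of 0.29 ± 0.11 and the unfoldase Clpx of 0.25 ± 0.10 (SE). With the trend on GC content and length removed, the values were 0.32 for Spg7, 0.33 for Afg3l2, 0.13 for Timm44 and 0.29 for Clpx.

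Among 10 other heat shock factor genes and targets, 5 had a log2 fold change above 0 and 5 below (median 0.00). In edgeR's test 1 gene in each direction had an unadjusted p under 0.05, and Ier5 was the lower one. The shares of all tested genes were 9.11% above and 10.3% below. Ier5, an Hsf1 target and cofactor, had 17.7 to 28.0 CPM in DIZE hearts and 26.7 to 46.3 CPM in vehicle hearts (log2 fold change -0.67 ± 0.19, SE, adjusted p = 0.128).

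The cold-inducible RNA-binding gene Cirbp had 104 to 122 CPM in DIZE hearts and 57.1 to 87.6 CPM in vehicle hearts (log2 fold change 0.55 ± 0.14, SE, adjusted p = 0.101), and Rbm3 had a log2 fold change of 0.18 ± 0.18 (SE). Of 15 clock genes, 2 with a log2 fold change above 0 and 4 below had an unadjusted p under 0.05 in edgeR's test. Over all tested genes the shares were 9.11% above and 10.3% below. The clock activator Arntl stood at 6.45 to 13.4 CPM in DIZE hearts and 1.47 to 4.02 CPM in vehicle hearts (log2 fold change 1.97 ± 0.33, SE, adjusted p = 0.0707). Per3, of the period family of clock repressors, had 31.7 to 39.4 CPM in DIZE hearts and 55.2 to 69.5 CPM in vehicle hearts (log2 fold change -0.77 ± 0.12, SE, adjusted p = 0.0707), and passed without vehicle library 1 (-0.81, adjusted p = 0.0453). Clock genes vary with the time of day, and the sources used here do not state the time of collection. Of 12 immediate early genes 10 had a log2 fold change above 0, against 48.2% of all tested genes. DIZE library 4 stood high, and Egr1 reached 165 CPM in it. Egr1 had 23.3 to 29.8 CPM in the rest of the DIZE hearts and 11.6 to 38.6 CPM in vehicle hearts.

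For some genes the count itself is uncertain. Of the 151-base windows of the longest coding transcript, 55.3% occurred in another annotated gene for Hspa8, 36.5% for Hspb1, 36% for Hsp90aa1, 18.4% for Hspd1, 13.9% for Hspe1 and 11.6% for Dnaja1. The copies had low counts of their own, with Gm15459 (sharing most with Hspa8) at 10.8 CPM, Hspd1-ps3 at 10.8 CPM and Gm12346 (sharing most with Hsp90aa1) at 3.24 CPM. The sources used here do not state how many reads were left out for fitting several genes. The low counts of the copies thus do not show how many reads the chaperone genes lost. Exons on opposite strands overlap for Hspb2 and Cryab (252 bases, 30.2% of the exons of Hspb2), for Stub1 and Jmjd8 (1084 bases, 42.3% of the exons of Stub1), for Dnaja1 and Smu1 (608 bases) and for Hspd1 and Hspe1 (112 bases). The kit keeps the strand, but the sources used here do not state the strand setting of the counting. The ratio of Hspb2 to Cryab in CPM was 0.0160 to 0.0181 in DIZE hearts and 0.0109 to 0.0169 in vehicle hearts.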

How the data were processed

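The authors deposited raw read counts per gene for all 8 libraries in one table. Stranded mRNA libraries from TRIzol RNA were sequenced as 151-base read pairs, per the labels' protocols. Per the submitters' processing notes the tools were STAR 2.7.3, HTSeq 0.6.1p1, edgeR and R 4.1, with the mm10 build. The sources used here name neither the annotation release nor the strand setting. Of 55487 gene IDs, 55141 matched GENCODE names on GRCm38. The table had 0 other columns of per-sample values.

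The deposited counts were filtered with filterByExpr (at least 10 reads, at least 15 in all), scaled by TMM and tested with edgeR 4.0.16 in R 4.3.3 (glmQLFit, robust), with Benjamini-Hochberg adjustment over 13648 genes and a threshold of 0.05. The fits were tested on simulated data. All 8 libraries entered, 4 DIZE and 4 vehicle, with no covariate. Intervals are 95% and use the moderated degrees of freedom. CPM was computed from the counts, and the levels per length divide it by the longest coding transcript. The 2 most alike libraries, DIZE 3 and 4, differed by a chi-square of 5.54 per degree of freedom, above sampling noise, so all 8 were kept as separate samples. Per-library values were given for genes with an unadjusted p under 0.05, with groups that did not overlap, or with the highest level per length of their class, and for Hspa1a and Hsp90aa1, which were added after their values were seen. From each further list, up to 4 genes with the smallest p could be named, and 1 such gene is not reported here. The chaperone genes and the lists were chosen with earlier results of these data known. Alternatives were DESeq2 1.42.0, limma 3.58.1 (voom with library weights), other scaling and filters, removal of GC and length trends, blocks by title form or number, each title form alone, and each library left out.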

Additional observations from a re-analysis of the deposited data

Results flagged for a closer look

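In 3 of 64 sets of 4 libraries (32 genes in 2 groups) the lowest library lay far from the other 3, where chance alone gives about 1 in 20, or 3.2 sets. Hsf1 had 26.6 CPM in vehicle library 1, while the other 3 of its group had 44.0 to 45.9 CPM. Stub1 had 34.1 CPM in DIZE library 2, while the other 3 of its group had 40.5 to 41.0 CPM. Hspb3 had 8.34 CPM in vehicle library 2, the library with the hepatocyte transcripts, and 10.9 to 11.2 CPM in the remaining vehicle libraries. The lowest Hspb3 value of all libraries was in DIZE library 1, at 7.69 CPM.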

How the results depend on the processing

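The number of genes past the adjusted p, 5 as reported, depended on the processing and on single libraries. It was 0 with library totals only, 386 with no filter on low counts, 609 with DESeq2, 446 with limma-voom and library weights, 10 with the GC and length trend removed, 9 with the title form as a block, 0 in titles with db alone and 1349 in titles without db alone. Leaving out each library in turn gave 0 to 240, with 240 without vehicle library 2, 9 without vehicle library 1, 1 without vehicle library 3 and 0 without any of the other 5. The number of chaperone genes past it stayed at 0 in these settings except limma-voom (1) and titles without db alone (6). The causes were not tested. The title numbers were also fitted as a replicate block, which gave 0 genes and 0 chaperone genes. Same-numbered libraries of the 2 groups did not deviate together (correlations of -0.14 to 0.02). With 4 libraries a group, these correlations cannot show whether the numbers pair the samples.

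The HSP70 and HSP110 median, -0.27 as reported, was -0.022 with the replicate block, 0.018 in titles with db alone, and -0.35 to -0.030 with each library left out (-0.030 without vehicle library 4). The HSP90 median, 0.10 as reported, was 0.35 in titles with db alone, -0.19 in titles without, -0.074 with limma-voom and -0.028 to 0.17 with each library left out (-0.028 without DIZE library 2). The co-chaperone median, 0.06 as reported, was -0.0014 with library totals only and -0.0067 with limma-voom. The J-domain median, -0.32 as reported, was -0.10 in titles with db alone and -0.53 in titles without. The causes were not tested.

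Signs of single genes turned mostly where the value was near 0. With library totals only, Hspa2 was at -0.047 and Dnaja2 at -0.043. With no filter, Cryab was at 0.014 and St13 at 0.0075. With limma-voom, Hspa2 was at -0.023, Hspa4 at -0.031 and Dnaja2 at -0.020. With the GC and length trend removed, Hspb1 was at -0.015, Hspa2 at -0.11, Hspa4l at 0.0067, Hspe1 at 0.082, St13 at 0.080 and Cacybp at 0.023. With the replicate block, Hspa1b was at 0.10, Hspa2 at -0.0007, Hsp90aa1 at 0.061 and St13 at 0.047. In titles with db alone, Hspb1 was at -0.19, Cryab at 0.0087, Hspa1b at 0.23, Hspa2 at -0.13, Hspa8 at 0.018, Hsph1 at 0.11, Hsp90aa1 at 0.26, Dnajb4 at 0.0081 and St13 at 0.12. In titles without db alone, Hspa4 was at -0.16, Dnaja2 at -0.047 and Hspe1 at 0.014. With each library left out, Hspa2 ran from -0.13 to 0.16, Cryab from -0.14 to 0.088, Hspb3 from -0.013 to 0.21, Dnaja2 from -0.016 to 0.066, St13 from -0.046 to 0.022, and Hsp90aa1 from -0.39 to 0.051. At the depth of these libraries Hspa1a, with 3 to 26 reads, could not be estimated closely.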
